A study of Drosophila melanogaster with 20 samples.

Results

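Odorant-binding proteins are small secreted proteins of the fluid around chemosensory neurons, where they bind hydrophobic odorants, and several are also made in the fat body, glia or reproductive tract. Odorant receptors (Or), gustatory receptors (Gr) and ionotropic receptors (Ir) are membrane proteins of those neurons that detect smells and tastes, and most are expressed in few cells. The genes described here are those on the array whose single current symbol begins with Obp, Or, Gr, Ir, CheA or CheB followed by the family's numbering, with lush and Orco added. They numbered 22 of the 2377 distinct gene symbols on the array: 21 odorant-binding proteins on 54 spots and 1 receptor, Gr97a, on 2 spots. No Or, Ir, CheA or CheB gene was among them, so every comparison of binding proteins with receptors rests on the single gene Gr97a. Another 8 spots, annotated to several symbols of which at least 1 belongs to these families, fell outside the rule.

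Oregon-R females of Drosophila melanogaster, 4 to 10 days old, were sprayed with a treatment in 99% ethanol or with 99% ethanol alone, and RNA of about 240 whole flies per extract was taken 6 h later. One spray held black pepper (Piper nigrum) extracted with ethyl acetate, at 0.2 mg/mL, another a combination of that extract at 0.1 mg/mL with pyrethrin at 0.004 mg/mL, and the last held pyrethrin, the insecticidal mixture from chrysanthemum flowers, at 0.04 mg/mL. Each treatment had 4 treated RNA extracts, named here by the labels' replicate numbers. Pepper and combination extracts were each hybridised on 2 arrays with exchanged dyes, and pyrethrin extracts on 1 array each with the treated RNA in Cy3, against 2 shared control extracts. Since all samples were whole flies, less RNA per cell and fewer cells of a type cannot be told apart, and a change limited to the antenna would be diluted by the rest of the body.

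Values are log2 ratios of treated over ethanol. The labels do not give this direction, which is only likely. It rests on the exchanged arrays: after the mean of each treatment and dye orientation was subtracted, both arrays of an extract correlated positively across features in 8 of 8 extracts (0.0342 to 0.509), and across the tested members in 8 of 8 (0.0327 to 0.505). As deposited, 6 of the 8 pairs correlated negatively. The 20 arrays held 13953 to 16853 values each, and neighbouring duplicate spots correlated at 0.131 to 0.738. The reverse array of pepper replicate 4 gave the lowest of these correlations, and it and the reverse array of pepper replicate 3 carry titles that name another study. The pyrethrin values were corrected for a dye effect estimated from the exchanged arrays of the other treatments, and without the correction 5 of the 48 member values against ethanol turned sign. The error of this dye estimate is common to all pyrethrin extracts. It does not enter the SE, interval or p of any comparison with pyrethrin, so these understate the uncertainty.

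The 21 odorant-binding protein genes lie singly or in clusters. Obp19a, Obp19b, Obp19c and Obp19d are consecutive genes on the X chromosome, which also holds Obp8a. Obp28a is on 2L. Obp44a, Obp47a, Obp56d, Obp56e, Obp56g, Obp56h, Obp57c and Obp59a are on 2R, lush is on 3L, and Obp83cd, Obp84a, Obp99a, Obp99b, Obp99c, Obp99d and Gr97a are on 3R. Of the 22 genes, 16 were measured in at least 3 of 4 extracts of every treatment and were tested, 15 binding proteins and Gr97a. An extract hybridised with exchanged dyes counted as measured only where both of its arrays gave a value. Lush, Obp19a, Obp47a, Obp83cd, Obp8a and Obp99d were measured too rarely to be tested.

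None of the 16 tested members passed the test for a change in any of the 3 treatments or in the 3 differences between treatments. The count was 0 of 16 at an adjusted p of 0.05 in limma and also 0 of 16 at an unadjusted p of 0.05 in each of the 6 comparisons. Over all 11526 features, 0% passed the adjusted threshold after pepper, 0% after the combination and 0.0607% (7 features) after pyrethrin. For combination minus pepper extract, combination minus pyrethrin and pyrethrin minus pepper extract the share was 0% each time. At the unadjusted threshold, 3.26% of features passed after pepper, 8.7% after the combination and 10% after pyrethrin. The shares were 4.63% for combination minus pepper extract, 12.1% for combination minus pyrethrin and 5.65% for pyrethrin minus pepper extract.

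The members' log2 changes ran from -0.29 to 0.18 after pepper, from -0.21 to 0.18 after the combination and from -0.29 to 0.26 after pyrethrin. Taken over all members, the 95% confidence intervals reached from 0.606-fold to 1.45-fold after the pepper extract, from 0.626-fold to 1.46-fold for the combination and from 0.627-fold to 1.68-fold for pyrethrin. The interval differed between members: for the pepper extract it ran from 0.846-fold to 1.16-fold for Obp99c and from 0.606-fold to 1.10-fold for Obp56d. The median of the 15 binding proteins was -0.016 after pepper (7 above 0 and 8 below), -0.012 after the combination (6 and 9) and 0.069 after pyrethrin (10 and 5). Without the dye correction the median after pyrethrin was -0.11, with 5 above 0 and 10 below. The median over all tested features was 0.0043, 0.015 and -0.0056 in the same order. The labels do not say whether extracts came from separate cages, so the p-values measure the spread between these extracts. Without the 2 arrays whose titles name another study, 0 of 16 members passed against ethanol in each treatment, with a lowest adjusted p of 0.450 in limma.

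**Figure D1:**
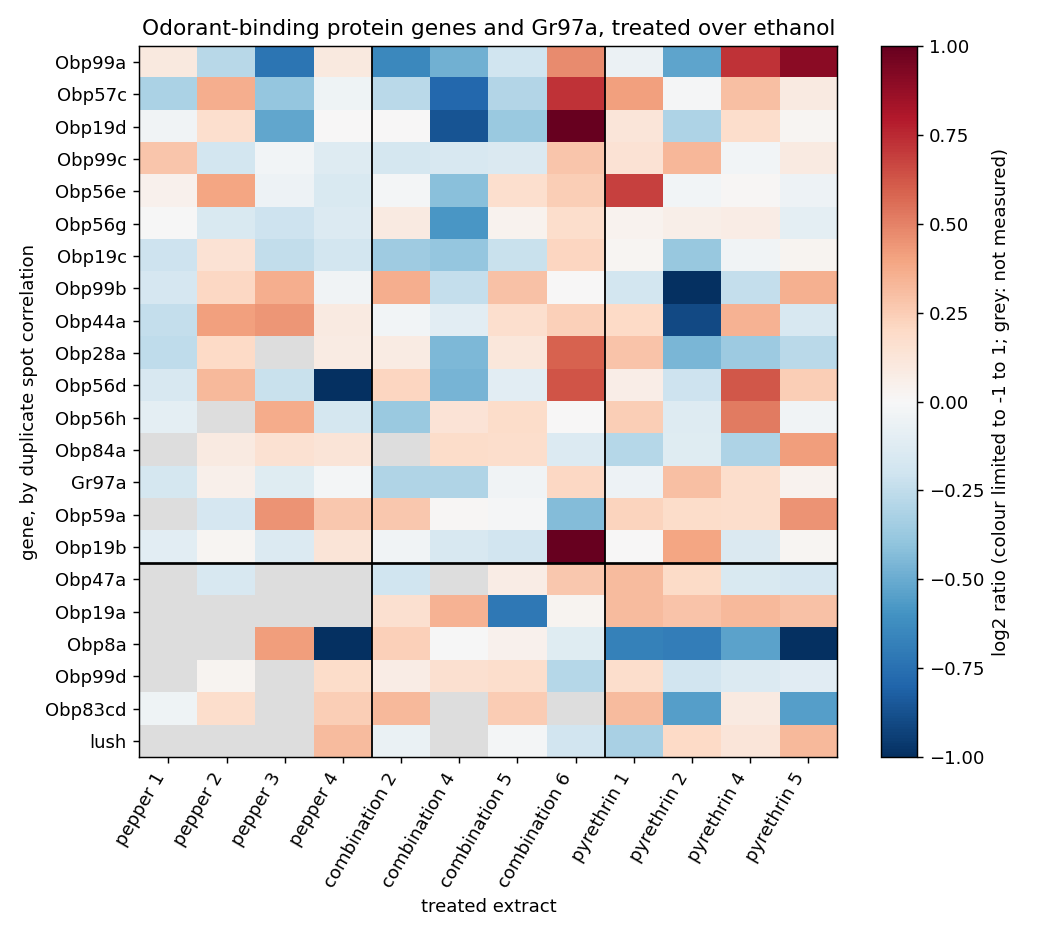
Log2 ratio of treated over ethanol for the 22 genes (rows) in the 12 treated extracts (columns). Colour is limited to -1 to 1, and grey marks an extract without a value on each of its arrays. Rows run from the highest to the lowest duplicate spot correlation, the 6 genes under the line were not tested, and combination replicate 6 is mostly red where combination replicate 4 is mostly blue.

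Several members are known from the antenna. Obp19d (PBPRP2), a protein of olfactory and gustatory sensilla, gave log2 ratios of -0.039, 0.16, -0.52 and 0.0039 in pepper replicates 1 to 4. In combination replicates 2, 4, 5 and 6 it gave 0.0014, -0.86, -0.37 and 1.09, and in pyrethrin replicates 1, 2, 4 and 5 it gave 0.12, -0.31, 0.17 and 0.021. Combination replicate 4 was the lowest and combination replicate 6 the highest of the 12 extracts, while the other treatments lay between them. The change was -0.035 ± 0.219 (SE, n = 4) for the combination, with an interval of -0.50 to 0.43 and an adjusted p of 0.974 in limma.

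Obp28a (PBPRP5), a binding protein of antennal sensilla, had a value on only 1 array of pepper replicate 3 (-0.66 in Cy3), which was not used. In the same order of replicates it gave -0.25, 0.20 and 0.081 after pepper, 0.079, -0.45, 0.11 and 0.59 after the combination and 0.29, -0.46, -0.36 and -0.27 after pyrethrin. Of the 4 pyrethrin extracts 3 were below 0, the groups overlapped, and the change after pyrethrin was -0.20 ± 0.164 (SE, n = 4) with an adjusted p of 0.722 in limma. Obp84a (PBPRP4), another antennal protein, was above 0 in the 3 pepper extracts that measured it (0.090, 0.15 and 0.13), and gave -0.28, -0.12, -0.31 and 0.42 after pyrethrin. The groups overlapped, and the pepper change was 0.12 ± 0.139 (SE, n = 3) with an adjusted p of 0.9999 in limma. Obp84a was chosen for mention after its values were seen, as were Obp56g, Obp57c and Obp8a.

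Obp59a, which is needed for humidity sensing in the antenna, was the member with the smallest p. It gave -0.17, 0.45 and 0.27 in the 3 extracts that measured it after pepper, 0.27, 0.012, -0.0085 and -0.43 after the combination and 0.22, 0.18, 0.18 and 0.45 after pyrethrin. All 4 pyrethrin extracts were above 0, but 2 of 3 pepper extracts lay as high or higher than the lowest of them. Before the dye correction the same arrays gave 0.0065, -0.037, -0.039 and 0.23, with 2 of 4 below 0, and the dye effect subtracted was -0.22 ± 0.376 (SD over 7 pairs). The corrected change after pyrethrin was 0.26 ± 0.13 (SE, n = 4), against 0.041 without the correction, with an unadjusted p of 0.0677 and an adjusted p of 0.534 in limma. Neither the SE nor the p holds the error of the dye effect. It was the only member of 16 with 1 sign in every measured pyrethrin extract, against 19.7% of all features. Its duplicate spots correlated at -0.131 over the arrays.

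For the pepper extract, 2 of 16 members had 1 sign in every measured extract, Obp56g and Obp84a, against 14.1% of all features. Obp56g, known from seminal fluid, gave -0.0053, -0.15, -0.21 and -0.14 there, all below 0, and 0.092, -0.58, 0.034 and 0.17 after the combination, which spanned them. For the combination 0 of 16 members had 1 sign, against 15.7% of all features.

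Among the genes of the Obp56 cluster, Obp56d was the lowest of all members after the pepper extract. It gave -0.16, 0.32, -0.22 and -1.11 after pepper, 0.21, -0.47, -0.11 and 0.63 after the combination and 0.070, -0.20, 0.62 and 0.24 after pyrethrin. Pepper replicate 4 alone stood apart, at -1.11, and its reverse array gave -1.90. The change was -0.29 ± 0.202 (SE, n = 4) with an adjusted p of 0.9999 in limma. Obp56e and Obp56h lay between -0.42 and 0.69 in all extracts that measured them.

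The Obp99 cluster is expressed in the fat body and other tissues outside the antenna. Obp99a gave 0.096, -0.28, -0.73 and 0.095 after pepper, -0.65, -0.48, -0.20 and 0.47 after the combination and -0.061, -0.53, 0.72 and 0.90 after pyrethrin. It was the lowest member after the combination and the highest after pyrethrin, yet each treatment had extracts on both sides of 0. The changes were -0.21 ± 0.216 (SE, n = 4) and 0.26 ± 0.229 (SE, n = 4), with adjusted p-values of 0.797 and 0.737 in limma. Without the dye correction Obp99a was at 0.041 after pyrethrin.

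Obp99b (tsx), a gene that differs between the sexes in the fat body of the head, gave -0.17, 0.21, 0.36 and -0.033 after pepper, 0.36, -0.24, 0.29 and 0.0038 after the combination and -0.19, -1.07, -0.24 and 0.35 after pyrethrin. Pyrethrin replicate 2 was the lowest of the 12 extracts, and pyrethrin replicate 5 was among the highest. The change after pyrethrin was -0.29 ± 0.181 (SE, n = 4) with an adjusted p of 0.636 in limma. Obp99c stayed between -0.19 and 0.33 in all extracts. Obp44a, which is expressed in glia among other tissues, was the second highest member after the pepper extract at -0.24, 0.41, 0.44 and 0.089, and reached -0.90 in pyrethrin replicate 2.

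Obp19b was the highest member after the combination, at a mean of 0.18. Combination replicate 6 gave 1.12, and replicates 2, 4 and 5, at -0.032, -0.16 and -0.19, were all below 0. Obp19c was among the lowest after the combination, with -0.36, -0.39, -0.22 and 0.22 and an adjusted p of 0.655 in limma. Its groups overlapped, and its pepper values ran from -0.24 to 0.14. Obp57c gave -0.32, 0.37, -0.39 and -0.042 after pepper, -0.27, -0.79, -0.29 and 0.72 after the combination and 0.41, -0.013, 0.30 and 0.086 after pyrethrin. Each treatment had extracts on both sides of 0 in these values. Before the dye correction all 4 pyrethrin arrays were below 0, at -0.15, -0.58, -0.26 and -0.48, and their mean was -0.37 (adjusted p = 0.354 in limma).

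The 6 untested genes gave few values. Lush, which binds the male pheromone cis-vaccenyl acetate in the antenna, was measured in 8 extracts and ran from -0.32 to 0.33, with both ends in pyrethrin extracts. Obp19a had values on both arrays in no pepper extract, and single Cy3 arrays of pepper replicates 2, 3 and 4 gave 0.0017, -0.50 and 0.054. It lay between 0.28 and 0.32 in the 4 pyrethrin extracts, against -0.71 to 0.35 after the combination. Before the dye correction the pyrethrin arrays gave -0.00019, -0.030, 0.011 and -0.019, and the correction rested on a mean dye effect of -0.31 in the 4 combination pairs. Obp99d ran from -0.28 to 0.19 and Obp47a from -0.20 to 0.31. Obp83cd ran from -0.55 to 0.33.

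Obp8a, known from the male reproductive tract, was below 0 in all 4 pyrethrin extracts (-0.67, -0.69, -0.53 and -0.9996). Before the dye correction the same arrays gave -0.055, -0.072, 0.088 and -0.38. On the reverse array of pepper replicate 4 the only measured spot of Obp8a read -7.33, and that pair moved the mean dye effect of Obp8a from 0.030 to 0.62. Without that pair the pyrethrin values were -0.085, -0.10, 0.057 and -0.41.

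Gr97a, a member of the gustatory receptor family, was the only receptor, and its measurement repeated poorly: duplicate spots correlated at 0.0578 over the arrays, and exchanged arrays of an extract at -0.689. It gave -0.18, 0.050, -0.12 and -0.022 after pepper, -0.30, -0.30, -0.034 and 0.21 after the combination and -0.054, 0.30, 0.18 and 0.033 after pyrethrin. In both treatments with pepper 3 of 4 values were below 0, 3 of 4 were above 0 after pyrethrin, and the ranges overlapped. Before the dye correction the pyrethrin arrays gave -0.11, 0.24, 0.12 and -0.027, with only replicates 2 and 4 above 0. The changes, with the correction for pyrethrin, were -0.068 ± 0.102 (SE, n = 4), -0.11 ± 0.102 (SE, n = 4) and 0.12 ± 0.107 (SE, n = 4). Their 95% intervals were -0.29 to 0.15, -0.32 to 0.11 and -0.11 to 0.34, and the adjusted p-values in limma were 0.9999, 0.781 and 0.755.

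Within single extracts, the mean of the 15 binding proteins was -0.091, 0.11, -0.054 and -0.077 in the pepper extracts, -0.063, -0.32, -0.027 and 0.35 in the combination extracts and 0.13, -0.21, 0.12 and 0.13 in the pyrethrin extracts. It had the sign of Gr97a in 10 of 12 extracts. The exceptions were pyrethrin replicates 1 and 2. Before the dye correction the binding protein mean was below 0 in every pyrethrin extract, at -0.018, -0.36, -0.025 and -0.014. Gr97a then gave -0.11, 0.24, 0.12 and -0.027, so the exceptions were pyrethrin replicates 2 and 4 instead. Combination replicate 4 had 12 of 15 binding proteins below 0, and combination replicate 6 had 13 of 15 above 0.

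By treatment the mean of the binding proteins was -0.028 ± 0.093 (SD, n = 4) after pepper, -0.015 ± 0.27 (SD, n = 4) after the combination and 0.043 ± 0.17 (SD, n = 4) after pyrethrin. Gr97a gave -0.068 ± 0.10, -0.11 ± 0.24 and 0.12 ± 0.16 (SD, n = 4 each). The difference, binding proteins minus Gr97a, was 0.040 ± 0.065, 0.092 ± 0.12 and -0.072 ± 0.31 (SD, n = 4 each), smaller than its spread between extracts in every treatment. Its sign turned in pyrethrin without replicate 2 (0.076), and these pyrethrin values carry the dye correction. In refits of the pepper extract it was -0.034 without replicate 1 and -0.033 without replicate 2. The filter then asked for fewer pepper extracts, so Obp8a, at -3.78 in pepper replicate 4, entered the mean. Over the 15 tested binding proteins the difference was 0.086, 0.060, 0.069 and -0.055 in pepper replicates 1 to 4. No test is given for this difference, since a mean over members chosen with earlier results known has none here.

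**Figure D2:**
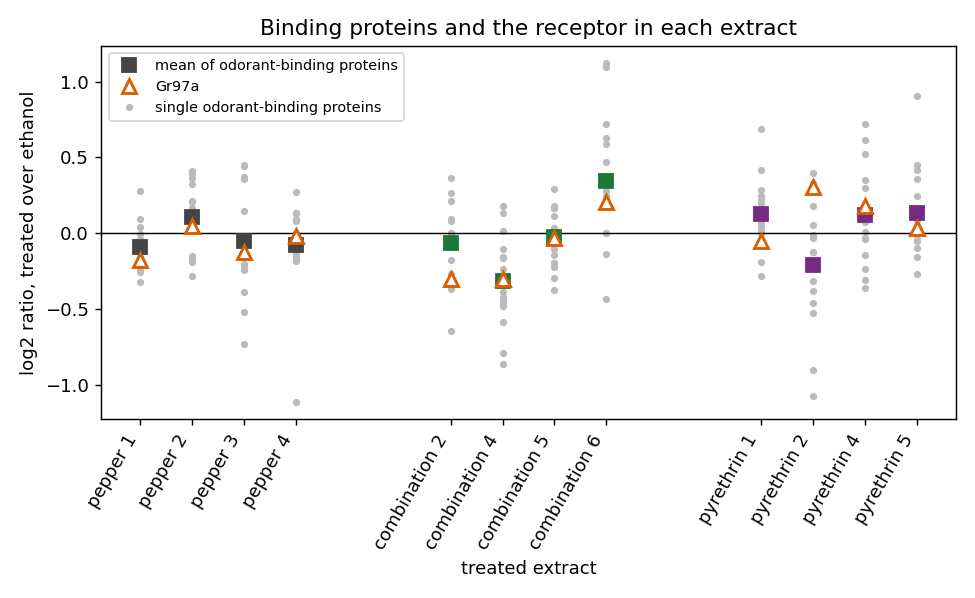
Log2 ratio of treated over ethanol in each treated extract for single odorant-binding proteins (grey dots), their mean (squares, coloured by treatment) and Gr97a (open triangles). The mean runs from -0.32 in combination replicate 4 to 0.35 in combination replicate 6, and Gr97a lies on the same side of 0 as the mean in 10 of 12 extracts. Pyrethrin values are shown after the dye correction, and before it the mean was below 0 on each pyrethrin array.

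The binding proteins varied widely between extracts of 1 treatment, and many varied together. With treatment means subtracted, the SD of a binding protein between extracts had a median of 0.351, against 0.214 over the 2169 named genes tested. Among genes whose duplicate spots correlated over 0.5 the contrast was smaller, 0.300 for 7 binding proteins against 0.231 for 1069 named genes. Over the 105 pairs of binding proteins the median correlation between extracts was 0.243, against 0.000205 over all pairs of named genes. Pairs over 0.5 made up 27.6% of the binding protein pairs and 12.6% of all pairs. All of these correlations are descriptions and carry no p. The binding protein pairs were measured over 9 to 12 extracts, and the genes share the same arrays.

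The tightest pair was Obp19d with Obp57c at 0.935, genes on different chromosomes. Obp19c with Obp57c gave 0.880, Obp28a with Obp57c 0.867, Obp28a with Obp56e 0.845, and the neighbours Obp19c and Obp19d 0.816. Obp59a and Obp84a ran the other way, with -0.747 between Obp57c and Obp59a. The 12 pairs within 20 genes of each other had a median of 0.406 and the 93 other pairs 0.234. Within the Obp99 cluster the correlation ran from -0.460 to 0.350, so neighbours did not all vary together.

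**Figure D3:**
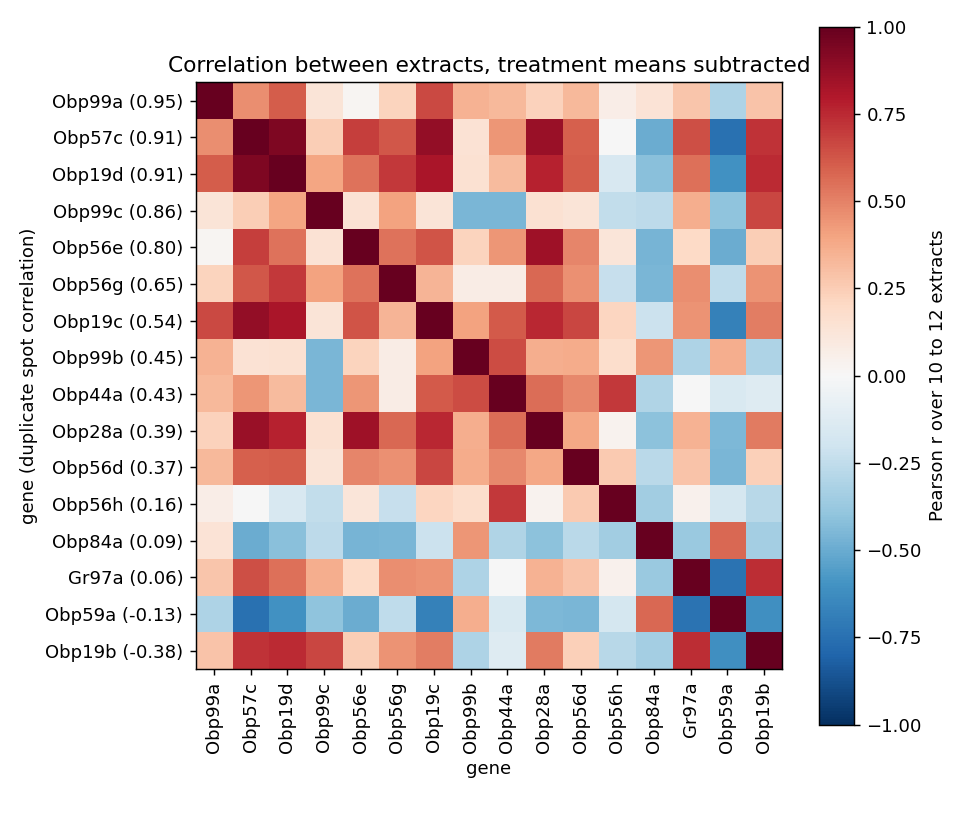
Pearson correlation between extracts, with treatment means subtracted, for each pair of the 16 tested members, ordered by the correlation of their duplicate spots (in brackets). A pair was measured over 9 to 12 extracts, a wider range than the label of the colour bar gives. Obp57c, Obp19d, Obp19c and Obp28a, which are not all adjacent here, correlate with each other at 0.756 to 0.935. The rows of Obp59a and Obp84a are mostly blue.

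The shared variation rested on a few extracts. Without combination replicate 6 the median correlation was 0.125, and without combination replicates 4 and 6 it was 0.0646. It was 0.589 within the combination, 0.107 within pyrethrin and -0.00522 within the pepper extract. From the arrays with treated RNA in Cy3 alone, which cover all treated extracts, it was 0.00434. It was 0.443 from those with treated RNA in Cy5 alone, which pyrethrin lacks, so dye and extracts differ together between these values. The median over all named pairs was 0.00225 and 0.000524 in those 2 orientations, and 0.000194 without combination replicates 4 and 6. Without the 2 arrays whose titles name another study, the median of the binding protein pairs was 0.167.

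The mean of the binding proteins followed the main axis of variation of the other features. That axis held 39.8% of the variance of 10005 features between extracts, without the members. Its score correlated with the binding protein mean at r = 0.908 (Spearman's rho 0.713, 12 extracts), and at 0.768 without the 2 extracts farthest from the median, combination replicates 4 and 6. The axis was given the sign that made it correlate positively with the binding protein mean, so the sign most members had with it was set by that choice. With the axis, 10 of 15 binding proteins correlated above 0.5 and 0 below -0.5. Of named genes, 25.03% lay above 0.5 and 24.6% below -0.5. Obp57c was at 0.921, Obp19d at 0.909, Obp28a at 0.864 and Obp19c at 0.849. The binding protein mean correlated with Gr97a at r = 0.431 (rho 0.392), and at -0.299 without the same 2 extracts, so that relation rested on them.

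**Figure D4:**
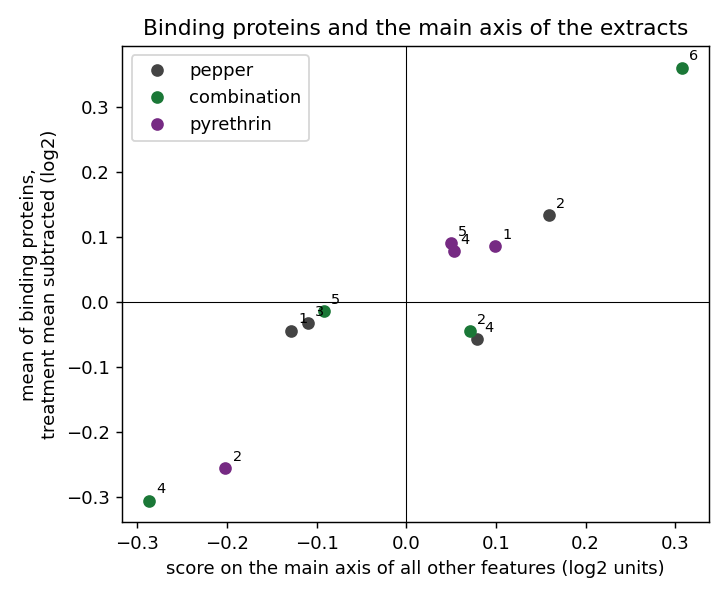
Mean of the 15 odorant-binding proteins with the treatment mean subtracted (vertical, log2) against the score of each extract on the main axis of all other features (horizontal, log2 units), with 1 point per treated extract, coloured by treatment and numbered by replicate. Combination replicates 4 and 6 lie at the ends, and r is 0.908 over the 12 extracts.

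The named genes outside the families whose pattern between extracts was most like the binding protein mean were CG32280 (r = 0.955), ana (0.945), Snx1 (0.944), CG5103 (0.937) and CG1902 (0.934), of 2117 genes measured in at least 11 extracts. The most opposite were as strongly correlated: Glys (r = -0.963), LeuRS (-0.954), beta-PheRS (-0.950), flr (-0.945) and Nadk1b (-0.939).

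How well a gene repeated on the array differed among the members. Duplicate spots correlated over the arrays at 0.954 for Obp99a, 0.911 for Obp57c, 0.909 for Obp19d, 0.864 for Obp99c and 0.801 for Obp56e. The value was 0.0578 for Gr97a, 0.0851 for Obp84a, -0.131 for Obp59a and -0.381 for Obp19b. Of the 15 binding proteins 7 were over 0.5, against 49.3% of named genes. The 21 pairs among those 7 genes, a set chosen after the values were seen, all correlated positively between extracts (0.0222 to 0.935, median 0.544). Without combination replicates 4 and 6 the median of these pairs was 0.144 and 12 of 21 were positive. Genes spotted as 2 separate pairs gave unlike values: the pairs of Obp19c, Obp56d, Obp56g, Obp56h, Obp59a and Obp99d correlated at -0.357 to 0.291, and the median over all 210 such genes was 0.0535.

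The exchanged arrays gave another measure of how well a gene repeated. After the mean of each treatment and orientation was subtracted, both arrays of an extract correlated over 8 extracts at 0.918 for Obp99a, 0.884 for Obp19d, 0.852 for Obp57c and 0.804 for Obp99c, against a median of 0.308 over named genes. Obp56e and Obp56g, whose duplicate spots repeated well, correlated at only 0.110 and -0.0946 here. Obp19d gave -0.44, -0.88, -0.45 and 1.09 with the treated RNA in Cy3 and 0.44, -0.84, -0.30 and 1.10 with it in Cy5 for combination replicates 2, 4, 5 and 6. Replicates 4 and 6 gave nearly the same value on both arrays. Gr97a correlated at -0.689, lower than all but 2.17% of named genes, and Obp84a at -0.837 over 6 extracts. Gr97a gave -0.76, -0.89, 0.075 and 0.36 in Cy3 and 0.15, 0.30, -0.14 and 0.048 in Cy5 for the same replicates. Its 2 lowest extracts in Cy3 were the 2 highest in Cy5.

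Several binding proteins read lower when the treated RNA was in Cy3. The mean dye effect, that is how far the Cy3 reading lay from the mean of both orientations, was below 0 for 12 of 15 binding proteins (80%), against 48.1% of all tested features. It averaged -0.147 over the 15 genes, -0.061 in the pepper pairs and -0.229 in the combination pairs. For some genes its sign differed between the pepper and combination pairs, as for Obp99c (0.318 and -0.317) and Obp56d (0.136 and -0.325). For others, such as Obp57c, it was below 0 in both. The mean used to correct pyrethrin pools both kinds of pair. Obp57c had the largest among the tested members, -0.566, with -0.309 in the pepper pairs and -0.822 in the combination pairs. For the combination it gave -1.34, -1.56, -1.05 and 0.026 in Cy3 and 0.80, -0.020, 0.46 and 1.42 in Cy5. All 4 extracts read higher in Cy5, and replicate 4 was the lowest and replicate 6 the highest in both orientations. Pyrethrin had Cy3 arrays alone, so its values carry the correction: without it the binding protein mean after pyrethrin was -0.10, against 0.043 with it, and Gr97a was 0.056, against 0.12.

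**Figure D5:**
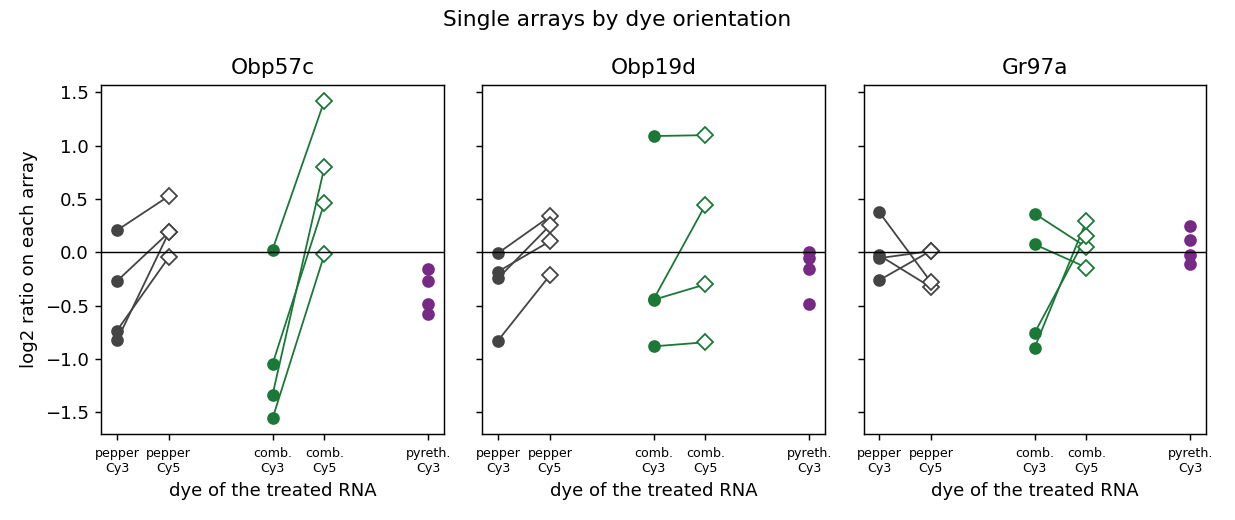
Log2 ratio on each single array for Obp57c, Obp19d and Gr97a by treatment and dye of the treated RNA, with filled circles for Cy3, open diamonds for Cy5 and lines that join the arrays of 1 extract. Every line of Obp57c rises from Cy3 to Cy5, whereas lines of Gr97a cross, and pyrethrin has Cy3 arrays alone, before the dye correction.

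Members passed only where the ratio was read otherwise or 1 orientation was used, among the alternatives run. Read by channel instead (Cy5 over Cy3), 2 of 16 members passed an adjusted p of 0.05 in limma for the pepper extract, against 19.6% of all features. They were Obp57c at 0.31 (adjusted p = 0.0174) and Obp99c at -0.32 (adjusted p = 0.00406). For the combination 4 of 16 passed, against 16.6% of all features: Obp57c at 0.82, Obp99a at 0.47, Obp56e at 0.36 and Obp99c at 0.32, with adjusted p-values of 0.000417 to 0.0398 in limma. For pyrethrin 0 of 16 passed. For combination minus pepper extract, Obp57c at 0.51 (adjusted p = 0.0392 in limma) and Obp99c at 0.63 (adjusted p = 0.00573 in limma) also passed when read by channel. These were 2 of 16 members, against 233 of all 11526 features. From the Cy3 arrays alone, Obp57c passed after the combination at -0.98 (adjusted p = 0.0408 in limma), the opposite sign. No other member value against ethanol passed there, whereas 370 of all features passed for the combination.

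Other genes of chemosensation were few on the array. Of a list of 30 transduction and channel genes, 4 were tested (Galphaq, Cngl, rdgA and rdgB) and 0 passed at an adjusted or unadjusted p of 0.05 in limma in any treatment. None of 23 listed carriers and enzymes that act beside the binding proteins was tested. Of 18 selector genes of chemosensory neurons, 5 were tested, and 1 rose after pyrethrin: dsx, the sex determination factor doublesex, by 0.69 ± 0.10 (SE, n = 4, adjusted p = 0.0248 in limma). No feature passed for pyrethrin without replicate 1, without replicate 4, without control extract 4 or in the fit of all 20 arrays, so this call and that of ocn were lost there. Dan, a transcription factor of antennal development, gave -0.63 ± 0.187 after the combination (unadjusted p = 0.00444, adjusted p = 0.473 in limma).

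Markers of other tissues were thinly covered. Of 25 male reproductive tract genes 4 were tested, all above 0 after pyrethrin with a median of 0.25, and ocn, a testis gene, rose by 1.05 (adjusted p = 0.0465 in limma). The mean of these 4 genes ran from 0.21 to 0.65 in the pyrethrin extracts, from -0.20 to 0.20 in the pepper extracts and from -0.21 to 0.28 in the combination extracts. Its correlation with the binding protein mean, with treatment means subtracted, was 0.329 over 12 extracts. Of 28 eye genes 3 were tested, with a correlation of 0.0268. All 3 were below 0 after pyrethrin, with a median of -0.16. After the combination inaE was at 0.28 (unadjusted p = 0.0347, adjusted p = 0.551 in limma) and the other 2 were below 0. For combination minus pyrethrin inaE was at 0.43 (unadjusted p = 0.0245, adjusted p = 0.349 in limma). Of 8 fat body genes 2 were tested and 0 passed, of 6 hemocyte genes 2 were tested and 0 passed, and of 18 ovary and yolk genes only yl was tested, at -0.29 after the combination (unadjusted p = 0.0231, adjusted p = 0.536 in limma). The part of these tissues in the members' values was not tested. Ratios hold no level, so the presence of tissue markers was not checked.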

How the data were processed

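The members and gene lists were chosen with earlier results of these data known. The authors deposited log2 ratios per spot; the base was inferred from a largest value of 14.3 in size, because 11.1 is the highest natural log that a 16-bit signal allows. Neither the numerator nor the authors' normalization is given in the sources used here. Groups came from the source names.

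Array medians were subtracted, and spots with the same single symbol were averaged (5666 spots, named by gene identifier through the GCF_000001215.4 annotation). Dye-exchanged arrays of 1 extract were averaged, and an extract with a value on only 1 of them was left without a value. Pyrethrin arrays were corrected by each feature's mean dye effect over the 8 pairs (at least 4 required). Features measured in at least 3 of 4 extracts per treatment were fitted in limma 3.58.1 under R 4.3.3, using statmod 1.5.0. The model had 1 mean per treatment, a random block for the control extract (correlation 0.0633) and weights of 1.02 for exchanged extracts and 0.969 for those on 1 array. The array titles use the same numbers for ethanol extracts in different treatments. Those of different treatments were counted as separate extracts, 10 in all, and this assumption was not tested. If extracts were shared, the treatments would not be independent. Tests were two-sided, with Benjamini-Hochberg adjustment over 11526 features. The code was tested on simulated data. The number of arrays limits the precision.

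Values per extract were to be given for members with an unadjusted p under 0.05 (there were none), the 2 highest and 2 lowest members of each class per treatment, and members fixed by role (lush, Obp19d, Obp28a, Obp56d and Obp99a to Obp99d among those measured). Alternatives covered the ratio's direction, dye correction, orientation, filters, averaging, blocks and each extract left out.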

Additional observations from a re-analysis of the deposited data

Results flagged for a closer look

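Of 58 sets of 4 extracts, one for each gene or class mean in each treatment, 7 had an extract whose gap to its nearest neighbour was, as a share of the whole range, above Dixon's 95% critical value, and chance gives about 1 in 20. The sets share extracts, arrays and genes and are not independent. Whether 7 is more than chance gives was therefore not tested. In combination replicate 6, Obp19b was at 1.12 and Obp99c at 0.28. In pyrethrin replicate 2, Obp19c was at -0.38 and the mean of the odorant-binding proteins at -0.21. Obp19c was at 0.14 in pepper replicate 2, Obp56e at 0.69 in pyrethrin replicate 1 and Obp59a at 0.45 in pyrethrin replicate 5.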

How the results depend on the processing

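The 4 extracts per treatment, the 2 control extracts for pyrethrin and a ratio whose direction is not stated limit these results. Of 48 member values against ethanol, 26 turned sign where the ratio was read by channel and 14 where arrays with the treated RNA in Cy3 were used alone. Read by channel, 2264 features passed for the pepper extract, 1918 for the combination, 102 for pyrethrin, 233 for combination minus pepper extract, 43 for combination minus pyrethrin and 9 for pyrethrin minus pepper extract, and binding proteins minus Gr97a was 0.14 for the pepper extract. From the Cy3 arrays alone the counts against ethanol were 247, 370 and 1, that difference was -0.099 and the median correlation 0.00434.

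For pyrethrin against ethanol, 7 features passed; the count was 132 without dye correction (1 each for combination minus pyrethrin and for pyrethrin minus pepper extract), 16 without the control block and weights, 0 in the fit of all 20 arrays (457 at an unadjusted p of 0.05), 13 for features measured in every extract, 4 for those in at least 2 of 4, and 0 without control extract 4. Without control extract 3, 1 feature passed for combination minus pyrethrin. With the replicate number as a replicate block, 243 features passed for pyrethrin and 0 members passed; the numbers do not pair the samples (correlations of -0.326 to 0.149, 1 of 8 over 0.1, and 1 of 12 extracts correlated best with its own number).

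The median correlation of binding protein pairs was 0.405 over features measured in every extract and 0.161 as Spearman's rho. Chosen after seeing the data, it was also 0.443 from the Cy5 arrays alone, which leave out pyrethrin, and 0.0646 without combination replicates 4 and 6. Also chosen so, it was -0.00522 within the pepper extract, 0.589 within the combination and 0.107 within pyrethrin. With 1 extract left out it ran from 0.125 to 0.293.

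With 1 extract left out, the count was 0 to 9 for pyrethrin, 0 to 3 for the combination, 0 to 3 for combination minus pyrethrin and 0 to 1 for pyrethrin minus pepper extract. Binding proteins minus Gr97a in the pepper extract ran from -0.034 to 0.072 (0.087 without the reverse array of replicate 4). The filter asked for fewer extracts of a treatment with 1 left out, so the binding proteins averaged were not always the same. No member passed in any of these fits. The causes of these shifts were not tested.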
